A study of Mus musculus with 6 samples.

Results

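Stem cell factor (SCF, gene Kitl), its receptor c-kit (gene Kit) and 7 genes that carry or limit the signal of the receptor were examined in retinal RNA. The 9 genes were taken as a fixed list by gene symbol, namely Kitl, Kit, Grb2, Sos1, Cbl, Pik3ca, Pik3r1, Akt1 and Mapk3, with no threshold on a measured value. All 9 had a value above 0 in at least 1 library, among the 25202 genes for which this was so. Of their 60 annotated transcripts, 27 were listed in all 6 files and 5 in some files only.

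Wild type mice, labelled as C57BL/6 at postnatal week 5 (C57BL/6J in the methods of the study), were used for both groups. All animals received an intravitreal injection of NMDA, a glutamate receptor agonist toxic to retinal ganglion cells, so the comparison holds no uninjured retina. After 2 days a second injection followed, of recombinant SCF in the NMDA + SCF group and, according to the methods of the study, of PBS in the NMDA + PBS group, and retinas were taken a week later. There were 3 libraries of whole retina per group, and the number of mice behind a library was not given in the sources used here, so p values measure the spread between these libraries, which may be technical.

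SCF is made either as a membrane-bound protein or as a form that proteases release from the cell surface. It binds and pairs c-kit, a receptor tyrosine kinase of hematopoietic stem cells, mast cells, melanocytes and germ cells that has also been described in retinal progenitor cells. The phosphorylated receptor recruits adaptors and PI3-kinase, which lead to RAS and ERK on one side and to AKT on the other, while the ubiquitin ligase CBL marks the active receptor for degradation. Much of this signal passes by phosphorylation, which mRNA levels do not measure.

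The exon that separates the releasable from the membrane-bound SCF mRNA is shown first, because the only coding transcript of Kitl listed holds it. In capitals is exon 6 of 10 of Kitl-202 (chr10:100080857-100080940, plus strand, GRCm38, coding), 84 bases long, which encodes the stretch with the protease site. The lower case flanks are the 15 bases of the neighbouring exons on either side. The second sequence is the same junction in Kitl-201, the shorter coding transcript, where those flanks meet directly.
Kitl-202 exon 6: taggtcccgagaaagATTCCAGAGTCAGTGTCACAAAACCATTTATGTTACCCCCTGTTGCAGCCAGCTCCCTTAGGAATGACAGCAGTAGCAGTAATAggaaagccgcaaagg
Kitl-201 junction: taggtcccgagaaagggaaagccgcaaagg

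For Kit, the one stretch of receptor coding sequence that could be measured in all 6 files is shown for the same reason. It is exon 17 of 21 of the coding transcript Kit-201 (chr5:75649547-75649669, plus strand, GRCm38), 123 bases in capitals, with 15 intron bases in lower case on either side. It encodes a stretch of the kinase domain that includes the catalytic loop, and reaches the files inside the retained-intron transcript Kit-207.
Kit exon 17: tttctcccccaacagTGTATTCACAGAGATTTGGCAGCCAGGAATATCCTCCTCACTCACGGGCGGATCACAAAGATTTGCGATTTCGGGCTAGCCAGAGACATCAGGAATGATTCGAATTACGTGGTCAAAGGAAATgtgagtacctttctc

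The study's primer pair for SCF is shown because it bears on the same distinction. Both primers matched Kitl-201 and Kitl-202 and gave a product of 84 bases over exons 4 and 5 (chr10:100076861-100080012), upstream of exon 6, so the product does not differ between the 2 transcripts.
SCF forward primer: atagtggatgacctcgtgt
SCF reverse primer: ggatctagtttctggcctct

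The libraries held between 44925938 and 48783182 clean reads, and between 3404312 and 4440545 counted fragments could be recovered from the FPKM values. FPKM (fragments scaled to the length of the transcript and to the library size) was summed per gene over the transcripts listed in all 6 files. These files use 2 transcript lists. NMDA + PBS replicate 1 and the NMDA + SCF libraries follow list A, NMDA + PBS replicates 2 and 3 follow list B, so the list and the treatment cannot be told apart except against NMDA + PBS replicate 1, which gives a value and no test. Across genes, NMDA + PBS replicate 1 correlated with the NMDA + SCF libraries at 0.949 to 0.951 and with the other NMDA + PBS libraries at 0.868 and 0.890, where genes are not independent replicates. The comparison was made by limma on log2(FPKM + 1), a scale on which the change of low genes is understated, and p values were adjusted over all 25202 genes (Benjamini-Hochberg).

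What the files can show differed widely between the 9 genes. For Kitl, Sos1, Cbl, Pik3ca, Pik3r1 and Akt1, the transcripts in all 6 files held every base of the principal coding sequence. For Mapk3 this share was 98.8% (1126 of 1140 bases), although its principal transcript was not among those listed in all 6 files. For Grb2 it was 32.7% (213 of 651 bases), and for Kit 4.19% (123 of 2937 bases). No annotated gene shared exon bases with any of the 9 genes.

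**Figure D1:**
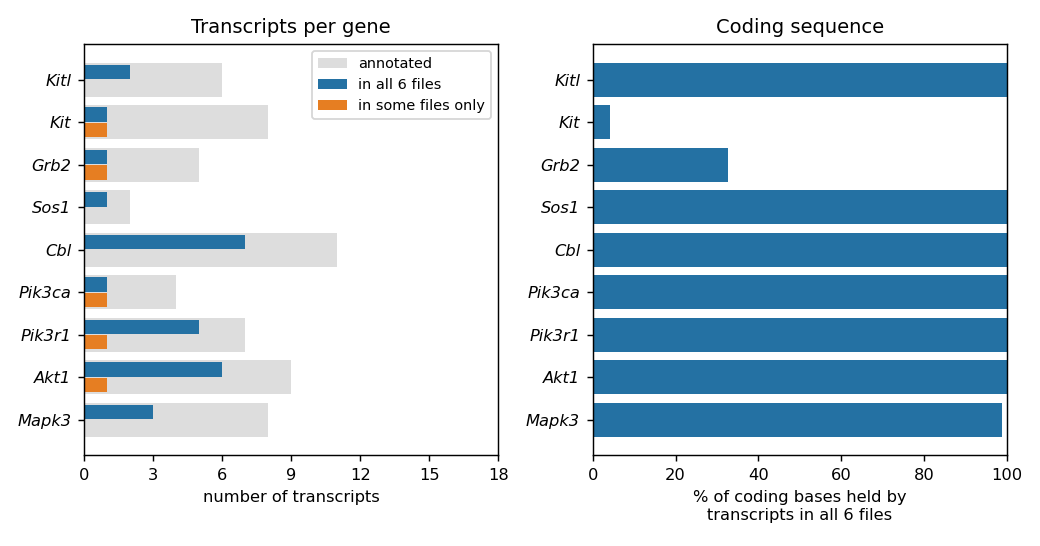
Left, number of transcripts per gene in the annotation (grey), in all 6 files (blue) and in some files only (orange). Right, percent of the bases of the principal coding sequence that lie in transcripts listed in all 6 files; Kit (4.19%) and Grb2 (32.7%) stand below the other 7 genes.

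Endogenous SCF mRNA was expressed at a low level in every library. Kitl (ENSMUSG00000019966, chromosome 10) was at 4.06, 6.50 and 6.14 FPKM in the NMDA + PBS libraries and at 4.44, 4.94 and 3.38 FPKM in the NMDA + SCF libraries, in the order of replicates 1, 2 and 3 as everywhere below. All of it was counted under Kitl-202, since the retained-intron transcript Kitl-206 was at 0 in every library. Kitl-201 was not among the transcripts listed, so fragments of shared exons could be assigned to Kitl-202 only, and the values do not tell which of the forms was present. The groups overlapped, and NMDA + PBS replicate 1 lay among the NMDA + SCF libraries.

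The means of Kitl were 5.57 ± 1.32 and 4.25 ± 0.796 FPKM (SD, n = 3 each). The log2 fold change was -0.31 (SE 0.27, limma adjusted p = 0.694), with a 95% interval from -0.95 to 0.33. Against NMDA + PBS replicate 1 alone, the library of the same transcript list, the difference was 0.04 on the log2 scale. The values rest on 66 to 154 fragments per library. The exact Poisson interval was 61.7 to 97.4 fragments for the 78 of NMDA + PBS replicate 1 and 51.0 to 84.0 for the 66 of NMDA + SCF replicate 3. Like all Poisson intervals and floors here, it covers counting error only. The 95% intervals of log2 fold changes are from limma and rest on the spread between libraries.

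The coding mRNA of the receptor could not be measured, and the only Kit transcript listed in all 6 files was at the limit of detection. Kit (ENSMUSG00000005672, chromosome 5) entered only through Kit-207, a retained-intron transcript of 3104 bases. It was listed at 0, 0 and 0.0726 FPKM in the NMDA + PBS libraries and at 0.282, 0 and 0 FPKM in the NMDA + SCF libraries. This is 1 fragment in NMDA + PBS replicate 3 and 3 fragments in NMDA + SCF replicate 1, with exact Poisson intervals of 0.0253 to 5.57 and 0.619 to 8.77 fragments. A count of 0 in this transcript allows up to 0.284 FPKM in NMDA + PBS replicate 1 and up to 0.278 FPKM in NMDA + SCF replicate 2 (3 fragments).

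No fold is given for Kit, since no library exceeded 3 fragments of Kit-207, and a difference in this transcript was not detectable with so few (limma unadjusted p = 0.498, adjusted p = 0.804). A second retained-intron transcript, Kit-208, was listed in list B only and held 0 fragments in NMDA + PBS replicate 2 and 1 fragment in replicate 3 (0.0709 FPKM). The coding transcripts of Kit were not among those listed, so these values do not give the level of c-kit mRNA that encodes the receptor.

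Grb2, the adaptor that links the phosphorylated receptor to SOS, could not be measured either. Grb2 (ENSMUSG00000059923, chromosome 11) entered only through a transcript of 369 bases with an incomplete end. It held 1 fragment in NMDA + PBS replicate 1 (0.796 FPKM) and 1 in NMDA + SCF replicate 1 (0.791 FPKM) and was listed at 0 in the other 4 libraries, where 3 fragments would be between 1.83 and 2.35 FPKM. Its principal transcript, of 2683 bases, was listed in list A only and was at 0 in all 4 libraries of that list, where 3 fragments are 0.321 to 0.329 FPKM. Grb2 is used by nearly all cells, so a listing at 0 was not read as absence, and no fold is given (limma unadjusted p = 0.997, adjusted p = 0.999).

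Sos1, the exchange factor that loads RAS with GTP, was well measured, with 643 to 1165 fragments per library in its single listed transcript. Sos1 (ENSMUSG00000024241, chromosome 17) was at 22.4, 24.3 and 31.1 FPKM in NMDA + PBS and at 23.3, 26.2 and 22.3 FPKM in NMDA + SCF. The groups overlapped. The means were 25.9 ± 4.58 and 23.9 ± 2.05 FPKM (SD, n = 3 each), and the log2 fold change was -0.10 (SE 0.19, limma adjusted p = 0.860). Its 95% interval ran from -0.55 to 0.35, and without NMDA + PBS replicate 3, the highest library, the value was 0.034. Against NMDA + PBS replicate 1 alone it was 0.09, so the direction turned.

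Cbl, the ubiquitin ligase that limits c-kit signaling, was at a level close to that of Sos1. Cbl (ENSMUSG00000034342, chromosome 9) was at 18.9, 24.7 and 34.7 FPKM in NMDA + PBS and at 25.2, 24.4 and 24.5 FPKM in NMDA + SCF. The NMDA + SCF libraries lay within 1 FPKM of each other, whereas the NMDA + PBS libraries spread on both sides of them. The means were 26.1 ± 8.01 and 24.7 ± 0.437 FPKM (SD, n = 3 each), and the log2 fold change was -0.03 (SE 0.24, limma adjusted p = 0.968), with a 95% interval from -0.59 to 0.52. Against NMDA + PBS replicate 1 alone, the lowest library for Cbl, the direction turned and the value was 0.37.

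Part of the spread of Cbl lay in short transcripts. The full coding transcript Cbl-211, of 11372 bases, made up between 59.8 and 85.6% of the summed FPKM and was at 16.2, 20.3 and 20.8 FPKM in NMDA + PBS and 19.2, 18.4 and 19.5 FPKM in NMDA + SCF. Its log2 fold change alone was 0.00 (SE 0.19). The short transcripts with the highest values, Cbl-205 (283 bases) and Cbl-209 (298 bases), rested on 7 fragments or fewer per library. Their FPKM is large only because it is scaled to a short length.

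Pik3r1 and Akt1, on the AKT arm of the pathway, were the 2 genes whose NMDA + SCF libraries all lay above all NMDA + PBS libraries. Pik3r1 encodes the regulatory p85 subunit, through which PI3-kinase docks on the receptor. Pik3r1 (ENSMUSG00000041417, chromosome 13) was at 45.7, 39.5 and 47.2 FPKM in NMDA + PBS and at 48.4, 57.2 and 47.7 FPKM in NMDA + SCF. The gap between the groups was narrow, since the lowest NMDA + SCF library (47.7 FPKM) lay just above the highest NMDA + PBS library (47.2 FPKM).

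The means of Pik3r1 were 44.1 ± 4.12 and 51.1 ± 5.29 FPKM (SD, n = 3 each), and the log2 fold change was 0.21 (SE 0.17, limma unadjusted p = 0.259, adjusted p = 0.688). The exact two-sided permutation test gave p = 0.1, the smallest that 3 against 3 libraries can give. The groups overlapped after upper quartile or median-of-ratios scaling of the libraries, as they did not on the deposited scale. The value was between 0.12 and 0.26 on the log2 scale when any 1 library was left out, and 0.15 against NMDA + PBS replicate 1 alone. Between 89.6 and 95.6% of the sum was the principal transcript, at 43.7, 35.9 and 42.3 FPKM in NMDA + PBS and 44.7, 51.9 and 44.3 FPKM in NMDA + SCF.

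Akt1, the kinase downstream of PI3-kinase, had the highest level of the 9 genes and the largest difference of them between the groups when all 3 NMDA + PBS libraries were used (against NMDA + PBS replicate 1 alone, Cbl at 0.37 was above Akt1 at 0.33). Akt1 (ENSMUSG00000001729, chromosome 12) was at 76.8, 72.6 and 45.8 FPKM in NMDA + PBS and at 92.1, 99.97 and 98.9 FPKM in NMDA + SCF. The groups did not overlap, and NMDA + PBS replicate 3 lay far below the other libraries. The means were 65.1 ± 16.8 and 97.0 ± 4.24 FPKM (SD, n = 3 each).

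The fold change of Akt1 was 1.52 (log2 fold change 0.60, SE 0.23, 95% interval 0.07 to 1.13). It had a limma unadjusted p of 0.031 and did not pass the test after adjustment over all genes (adjusted p = 0.536). The exact two-sided permutation test gave p = 0.1, the smallest possible with 3 against 3. Over 15 alternatives with a test the adjusted p ranged from 0.150 to 0.791 and the unadjusted p from 0.013 to 0.087, the latter above 0.05 with either other scaling, with a replicate block and without any 1 of the NMDA + SCF libraries.

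The direction of the Akt1 difference was the same in every alternative run, and its size depended on NMDA + PBS replicate 3. The log2 fold change was 0.37 without that library and 0.74 without NMDA + PBS replicate 1, and 0.33 against NMDA + PBS replicate 1 alone. Its principal transcript, of 2690 bases, which made up 81.2 to 92.7% of the sum, was at 70.3, 59.0 and 38.3 FPKM in NMDA + PBS and at 80.3, 88.9 and 91.7 FPKM in NMDA + SCF. It rested on 458 to 853 fragments per library. Its log2 fold change was 0.67 (SE 0.25, limma unadjusted p = 0.028, adjusted p = 0.591 over 45261 transcripts). The other transcripts of Akt1 listed in all 6 files overlapped between the groups, and a processed transcript in list B only was at 0.

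Levels of Akt1 in bulk tissue cannot tell apart more RNA per cell from more cells that express it, and the same holds for every gene here. The summed level of photoreceptor markers was also higher in NMDA + SCF, while single markers went both ways. Of 8 markers 7 had a value, 3 of them (Pde6b and Nrl among them) were higher in every NMDA + SCF library 1 (Crx) was lower and the other 3 overlapped, and their summed level was 1547 to 1840 FPKM in NMDA + PBS and 1902 to 2158 FPKM in NMDA + SCF. NMDA + PBS replicate 3, the lowest library for Akt1, was the lowest for Nrl (85.0 FPKM against 104 to 161 FPKM in the others) and the highest for Prph2 (336 FPKM against 271 to 309 FPKM) and Crx. The part of these markers in the Akt1 difference was not tested.

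Pik3ca encodes the p110 alpha catalytic subunit of PI3-kinase, and its value depended on the transcript list. Pik3ca (ENSMUSG00000027665, chromosome 3) entered through Pik3ca-203, at 0.263, 0.263 and 0.135 FPKM in NMDA + PBS and 0.0873, 0.430 and 0 FPKM in NMDA + SCF. These are 0 to 10 fragments per library, and the groups overlapped. The log2 fold change was -0.07 (SE 0.16, limma adjusted p = 0.881). It was -0.55 with a pseudocount of 0.1 and -1.18 with voom on recovered fragments, neither at an unadjusted p of 0.05.

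A second coding transcript, Pik3ca-201 of 8917 bases, with the same 3204 coding bases, was listed in list B only. It was at 1.61 FPKM (57 fragments) in NMDA + PBS replicate 2 and 2.27 FPKM (90 fragments) in replicate 3. With all listed transcripts summed, the log2 fold change became -0.997 (unadjusted p = 0.045, adjusted p = 0.486), where a transcript that a file does not list counts as 0. Since all NMDA + SCF libraries use list A, that difference and the list cannot be told apart, and the level of Pik3ca was not comparable between the lists.

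Mapk3 (ERK1), a terminal kinase of the RAS branch, rested on few fragments. Mapk3 (ENSMUSG00000063065, chromosome 7) was at 4.21, 4.48 and 5.56 FPKM in NMDA + PBS and at 4.19, 6.27 and 5.15 FPKM in NMDA + SCF. The groups overlapped. The means were 4.75 ± 0.713 and 5.20 ± 1.04 FPKM (SD, n = 3 each), and the log2 fold change was 0.10 (SE 0.25, limma adjusted p = 0.896), with a 95% interval from -0.49 to 0.69. Between 90.2 and 95.9% of the value was a retained-intron transcript of 436 bases with 6 to 10 fragments per library, and its single listed coding transcript held 1 to 3 fragments.

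**Figure D2:**
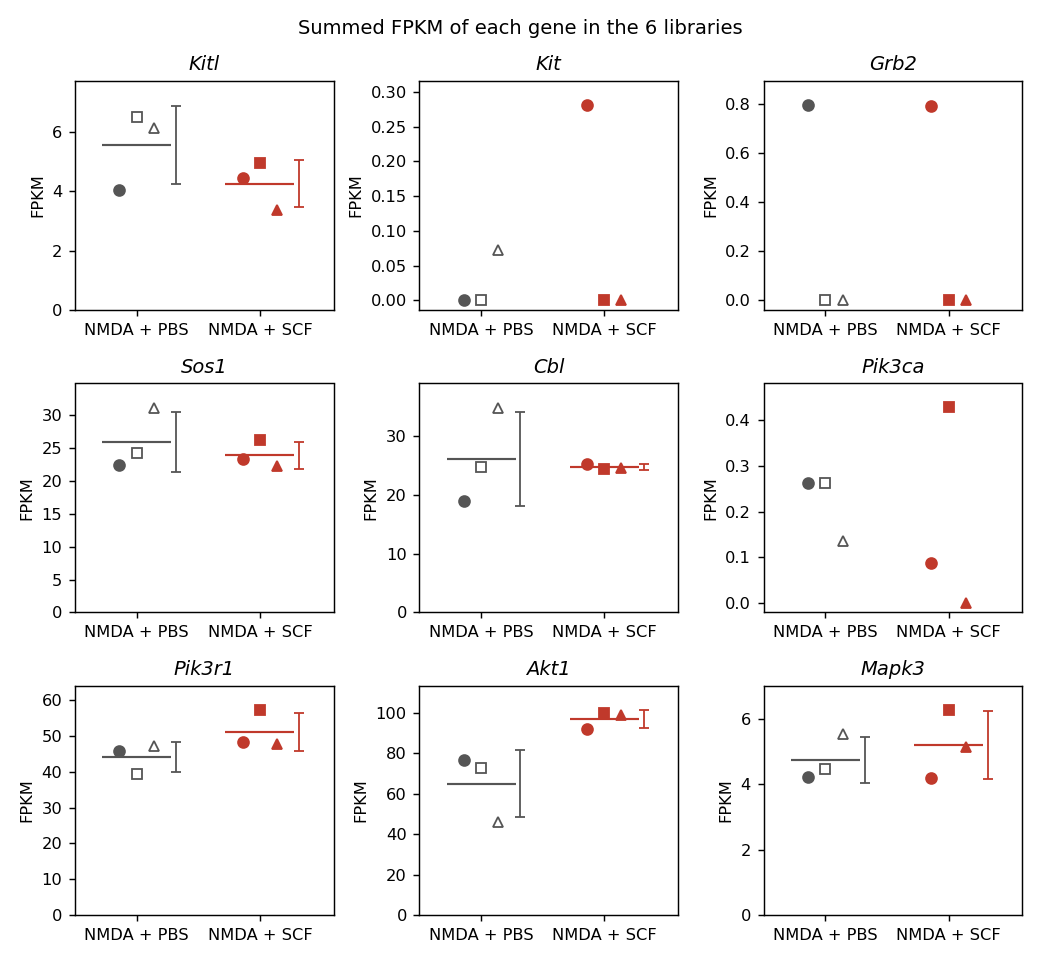
Summed FPKM of the 9 genes (y axis) in NMDA + PBS (grey) and NMDA + SCF (red); circle, square and triangle are replicates 1, 2 and 3, open symbols are the libraries with list B, and lines and bars are the mean and SD of 3 libraries, left out for Kit, Grb2 and Pik3ca. In Pik3r1 and Akt1 the red points lie above all grey points, and in Kitl the closed grey point lies among the red ones.

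**Figure D3:**
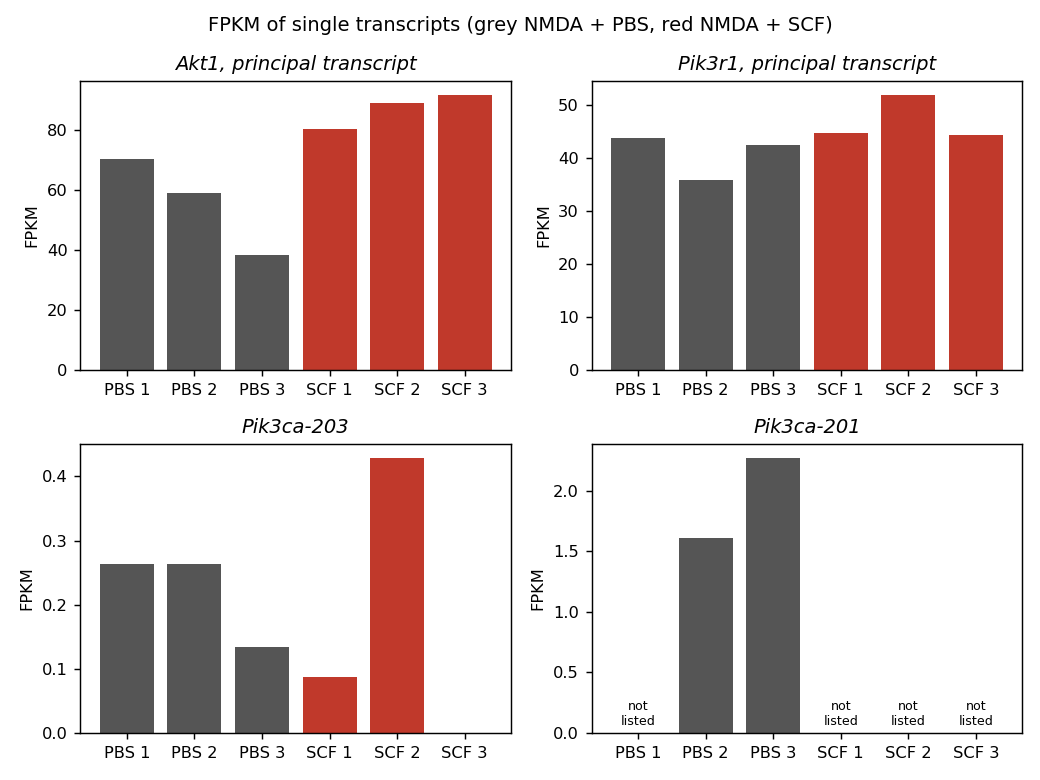
FPKM of 4 single transcripts (y axis) in the 6 libraries, NMDA + PBS in grey and NMDA + SCF in red. The principal Akt1 transcript was lowest in NMDA + PBS replicate 3 (38.3 FPKM), and Pik3ca-201 was listed in NMDA + PBS replicates 2 and 3 only.

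None of the 9 genes passed an adjusted p of 0.05, and neither did any other gene (0.00% of 25202). At an unadjusted p of 0.05 limma gave 2324 genes, and limma with voom weights on recovered fragments called 1 gene at an adjusted p of 0.05, mt-Nd1, a mitochondrial gene named here after its value was seen. Of the 9 genes, 1 (Akt1) was higher at an unadjusted p of 0.05, where 4.33% of all genes were, and 0 were lower, where 4.90% were. The groups did not overlap in 2 of the 9 genes in the higher direction (Pik3r1 and Akt1), beside 7.63% of all genes, and in 0 of 9 in the lower direction, beside 6.45%. At these background shares 9 genes would hold 0.389 and 0.686 genes of the 2 higher kinds, so the counts differ from the background by about 1 gene.

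Among the 24 transcripts of these genes that entered a fit of single transcripts, 0 passed an adjusted p of 0.05 and 1 (the principal Akt1 transcript) was higher at an unadjusted p of 0.05, where 3.41% of all transcripts were. No overlap was seen for 3 of the 24 in the higher direction (the principal transcripts of Akt1 and Pik3r1 and a coding transcript of Pik3r1 with an incomplete end), beside 6.32% of all transcripts, and for 0 in the lower direction, beside 6.79%. The last rested on 3 to 7 fragments per library.

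**Figure D4:**
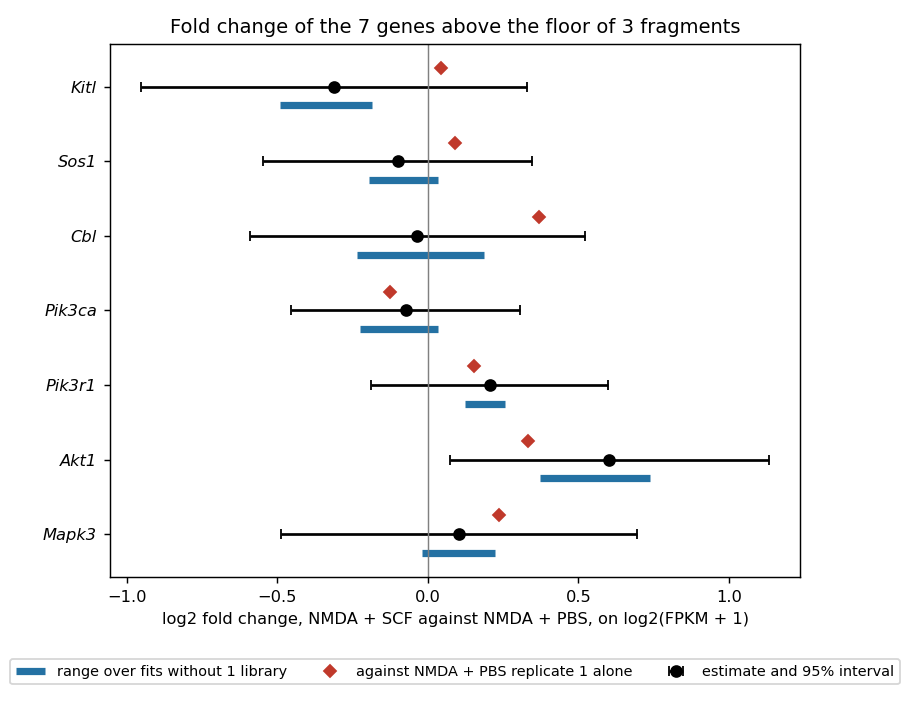
Log2 fold change of NMDA + SCF against NMDA + PBS (x axis) for the 7 genes above 3 fragments; black points and bars are the limma estimate and its 95% interval, blue bars the range when any 1 library was left out, and red diamonds the value against NMDA + PBS replicate 1 alone. Only the interval of Akt1 (0.07 to 1.13) leaves out 0, before any adjustment for the number of genes, and the red diamonds of Kitl, Sos1, Cbl, Akt1 and Mapk3 lie outside their blue ranges.

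In the order of summed FPKM over the 6 libraries, Akt1 came first (mean 81.0 ± 20.6 FPKM, SD, n = 6), then Pik3r1 (47.6 ± 5.69), Cbl (25.4 ± 5.13), Sos1 (24.9 ± 3.36), Mapk3 (4.97 ± 0.835) and Kitl (4.91 ± 1.21). Grb2, Pik3ca and Kit, each below 1 FPKM in every library, were not ranked, and a principal coding transcript of each is outside 1 or both lists. The principal transcript of Mapk3 is outside both lists as well. Its value was 90.2 to 95.9% a retained-intron transcript, so its place in the order is not a level of coding ERK1 mRNA. Akt1 was above Pik3r1 in 5 of 6 libraries, and their ranges overlapped. Pik3r1 was above Cbl and Sos1 above Mapk3 in all 6 libraries without overlap of their ranges. Cbl and Sos1 did not differ beyond their spread (Cbl was higher in 4 of 6 libraries), nor did Mapk3 and Kitl (3 of 6). Akt1 had a higher mean than 97.4% of the genes tested and Kitl than 71.9%.

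The ligand was compared with all genes of at least 5 FPKM for a similar course over the 6 libraries. The genes most like Kitl were Slc15a2, a peptide transporter (Pearson r = 0.983), AC126682.1 (r = 0.982) and Notch1, a receptor of progenitor and glial cells (r = 0.981). Slc15a2 was at 17.2, 56.5 and 46.6 FPKM in NMDA + PBS and 25.2, 30.4 and 8.52 FPKM in NMDA + SCF. Like Kitl, it was highest in the libraries with list B and lowest in NMDA + SCF replicate 3. Of 7023 genes 125 reached an r of 0.9 with Kitl, and the 6 points share the transcript list. For Kit the leading genes were Rpl8 (r = 0.942), Crim1 (r = 0.932) and Gm15954 (r = 0.927), a ranking that rests on 4 fragments of Kit in all, and Rpl8 has pseudogene copies.

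Of 79 other genes of the pathway, 67 had a value and 44 reached a mean of 1 FPKM. None passed an adjusted p of 0.05 (the smallest adjusted p was 0.536), 2 were higher and 3 lower at an unadjusted p of 0.05 (beside 4.33 and 4.90% of all genes), and the groups did not overlap in 5 higher and 3 lower genes (beside 7.63 and 6.45%), counts near or below the background. The median log2 fold change of the 44 genes was 0.07, and that of the 14013 genes of at least 1 FPKM was 0.07. Further values of log2 fold changes below are from limma, none of them past the adjusted test.

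Among the kinases and GTPases of the RAS branch, 11 of 12 genes had a value, 1 was higher and 1 lower at an unadjusted p of 0.05. Map2k2 (MEK2), the kinase that phosphorylates ERK, was at 24.4, 23.5 and 19.1 FPKM in NMDA + PBS and at 30.2, 36.1 and 37.6 FPKM in NMDA + SCF. The groups did not overlap (log2 fold change 0.61, SE 0.18, unadjusted p = 0.012), and against NMDA + PBS replicate 1 alone the value was 0.48.

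In the PI3K and AKT branch 12 of 13 genes had a value and 0 reached an unadjusted p of 0.05 in either direction. The highest log2 fold change was that of Pik3r2, the p85 beta subunit, at 10.9, 6.55 and 2.48 FPKM in NMDA + PBS and 9.54, 11.8 and 14.1 FPKM in NMDA + SCF (0.90, SE 0.44). The groups overlapped, and as in Akt1 the lowest library for Pik3r2 was NMDA + PBS replicate 3.

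Of the adaptors and docking proteins 7 of 10 genes had a value and 0 reached an unadjusted p of 0.05. Shc1, an adaptor upstream of Grb2, was at 2.74, 2.99 and 2.27 FPKM in NMDA + PBS and 3.79, 3.21 and 4.69 FPKM in NMDA + SCF without overlap (log2 fold change 0.41, SE 0.27, unadjusted p = 0.172). Grb10, an adaptor that limits receptor signaling, had the lowest value (-0.27, SE 0.37).

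Among SRC kinases, STAT proteins and phospholipases 12 of 14 genes had a value, 1 was higher and 0 lower at an unadjusted p of 0.05. Src, which the naming rule takes as the lowest of this list, held 1, 1 and 2 fragments in NMDA + PBS and 0, 0 and 3 in NMDA + SCF, so no fold is given.

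Among negative regulators 10 of 13 genes had a value, 0 were higher and 1 was lower at an unadjusted p of 0.05. Spred2, which restrains RAF, was at 0.132, 7.06 and 3.14 FPKM in NMDA + PBS and at 0.131, 0.0646 and 0 FPKM in NMDA + SCF (log2 fold change -1.66, SE 0.67, unadjusted p = 0.040), with 2, 1 and 0 fragments in the latter. Against NMDA + PBS replicate 1 alone, which held 2 fragments and follows the same list, the value was -0.09. The difference and the transcript list cannot be told apart. Cblb, a paralog of Cbl, had the highest value (0.25, SE 0.24).

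Of the target genes of ERK signaling 10 of 11 had a value, 0 were higher and 1 was lower at an unadjusted p of 0.05. Fos, an immediate early gene, was at 36.5, 73.0 and 55.7 FPKM in NMDA + PBS and 39.5, 22.8 and 33.2 FPKM in NMDA + SCF (log2 fold change -0.75, SE 0.31, unadjusted p = 0.043). The groups overlapped, and against NMDA + PBS replicate 1 alone the value was -0.23. Etv1 was the highest of the list (1.06, SE 0.56), at 2.85, 0.0698 and 0 FPKM in NMDA + PBS and 1.86, 3.40 and 1.93 FPKM in NMDA + SCF, and was lower, not higher, against NMDA + PBS replicate 1 alone (-0.21).

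Of proteases that release SCF and receptors related to c-kit, 5 of 6 genes had a value and 0 reached an unadjusted p of 0.05. Adam17, a sheddase of membrane proteins, was at 3.10, 5.20 and 3.59 FPKM in NMDA + PBS and 5.16, 3.47 and 3.94 FPKM in NMDA + SCF (log2 fold change 0.07, SE 0.28). Flt3, a receptor of the same class as c-kit, had the highest value (0.27, SE 0.33).

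**Figure D5:**
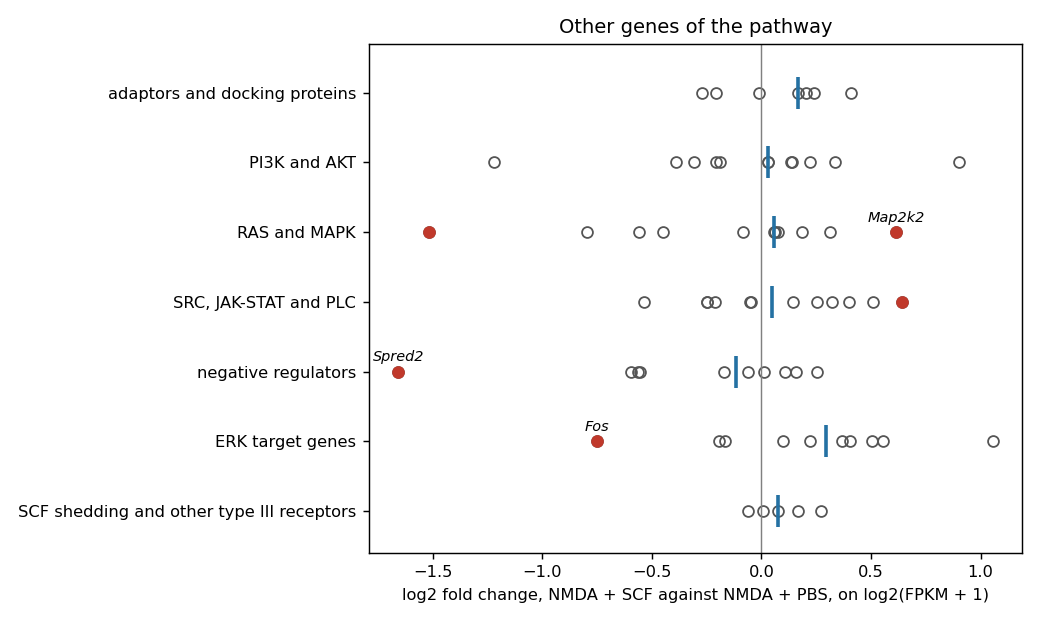
Log2 fold change of NMDA + SCF against NMDA + PBS (x axis) for the 67 other pathway genes with a value, by list (y axis); each circle is a gene, filled red at an unadjusted p of at most 0.05, and the blue bar is the median of the circles in the row. The 5 red genes lie on both sides of 0; those described in the text are labelled, among them Map2k2 (0.61) and Spred2 (-1.66).

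The tissue label was checked by markers. Summed markers of Müller glia (6 of 7 with a value) were at 3059 to 4048 FPKM in NMDA + PBS and 3142 to 3335 FPKM in NMDA + SCF, those of amacrine cells (8 of 8) at 203 to 298 and 253 to 296 FPKM, and those of ganglion cells (7 of 8) at 227 to 464 and 261 to 319 FPKM. Among them Dkk3, a Müller glia gene, was at 980 and 1007 FPKM with list B and below 1 FPKM with list A, and Rbpms, which defines ganglion cells, was at 0 to 2.21 FPKM. Bipolar cell markers (5 of 6) summed to 266 to 301 FPKM in NMDA + PBS and 305 to 326 FPKM in NMDA + SCF. Microglia (4 of 7) summed to 35.4 to 290 and 219 to 301 FPKM, endothelium (5 of 6) to 38.5 to 86.7 and 84.1 to 111 FPKM, and pigment epithelium (6 of 6) to 196 to 800.1 and 712 to 939 FPKM in the same order. NMDA + PBS replicate 3 was the lowest library for the microglia, endothelium and pigment epithelium sums. The pigment epithelium sum was mostly Ttr (176 FPKM in that library), and of its other markers only Best1 was also lowest there. The endothelium sum was mostly Cldn5 (28.5 FPKM in that library), whereas Pecam1 (1.41 FPKM) was at its highest there and Cdh5 and Kdr were not at their lowest. Lens markers (8 of 9) summed to 23.4 to 303 FPKM in NMDA + PBS and 458 to 9500 FPKM in NMDA + SCF. Of these 8 markers 4 were higher without overlap (beside 7.63% of all genes) and 0 lower (beside 6.45%). Crygs was at 16.6, 122 and 149.8 FPKM in NMDA + PBS and 3273, 354 and 6280 FPKM in NMDA + SCF. Cryaa was at 0, 0 and 2.15 FPKM in NMDA + PBS and 81.0, 0.866 and 101 FPKM in NMDA + SCF, with overlap. In both genes NMDA + SCF replicate 2 lay far below replicates 1 and 3.

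Of cell types known to carry c-kit outside the neural retina, mast cells had 3 of 7 markers with a value. Cpa3 and Tpsb2 stayed below 1 FPKM in every library, whereas Hdc was at 4.17, 21.8 and 49.0 FPKM in NMDA + PBS and 2.65, 2.30 and 1.65 FPKM in NMDA + SCF. The values of 21.8 and 49.0 FPKM were in the libraries with list B, so the Hdc difference and the transcript list cannot be told apart. Melanocyte and pigment cell markers (5 of 7) summed to between 53.0 and 213 FPKM in NMDA + PBS and between 130.1 and 316 FPKM in NMDA + SCF, and the groups overlapped. Their part in the fragments of Kit was not tested.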

How the data were processed

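Poly(A) RNA of 3 NMDA + PBS and 3 NMDA + SCF retinal libraries was sequenced by the authors, who deposited FPKM values per transcript for each library and a table with clean reads and the percent of bases of quality 30 (92.9 to 94.3 percent), of which 5 columns were not used. The aligner and counter were not given in the sources used here. The submitters' processing notes name mm9, whereas 98.1% of the 63345 Ensembl transcripts found in the annotation had the positions of GENCODE M21 (GRCm38), which was used for coordinates. For each gene, FPKM was added up over those of 46933 Ensembl transcripts that both lists share; list A holds a further 7529 and list B a further 8966. Values times length were whole multiples of 1 fragment (within 0.05) for 98.3 to 98.4% of values.

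A count test had been written for raw counts, and since the files held FPKM, limma 3.58.1 (R 4.3.3) was fitted to log2(FPKM + 1) with condition only. Overlap between groups was read from the libraries' values, and the exact permutation test was two-sided. Alternatives were other scalings, a filter of 1 FPKM in 3 libraries, a pseudocount of 0.1, other transcript sets, a replicate block, each library left out, and voom on recovered fragments. Single transcripts were added after the data were seen. The script was tested on simulated data. Tables and plots used Python 3.11.15 and matplotlib 3.10.9.

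The members and lists were chosen with earlier results of these data known. Named genes were the 9 members, in each pathway list the highest and lowest log2 fold change among genes of mean 1 FPKM or more and every gene at an unadjusted p of 0.05, the 3 genes most correlated with Kitl and with Kit, and markers. A few genes that meet this rule are left out of the text.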

Additional observations from a re-analysis of the deposited data

Results flagged for a closer look

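A transcript outside the sums over all 6 files held more than 3 fragments. Pik3ca-201, a full coding transcript of the PI3-kinase catalytic subunit, was at 1.61 FPKM in NMDA + PBS replicate 2 (57 fragments) and at 2.27 FPKM in NMDA + PBS replicate 3 (90 fragments). The files of the other 4 libraries do not list it. Groups of 3 libraries are too small for a test of single outlying libraries.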

How the results depend on the processing

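Kitl, Pik3r1 and Akt1 kept their direction in every alternative with a test, and the adjusted p of each of the 9 genes stayed above 0.05 in all of them. Against NMDA + PBS replicate 1 alone the direction turned for Kitl (0.04), Sos1 (0.09) and Cbl (0.37). It turned for Cbl also with protein-coding transcripts only (0.013) and with its most abundant transcript alone (0.0036). Without any 1 library the log2 fold change ran from -0.195 to 0.034 for Sos1 (above 0 without NMDA + PBS replicate 3), from -0.237 to 0.185 for Cbl (above 0 without the same library), from -0.225 to 0.033 for Pik3ca (above 0 without NMDA + SCF replicate 3) and from -0.019 to 0.224 for Mapk3 (below 0 without NMDA + SCF replicate 2). No fold was recomputed for Kit and Grb2, which held at most 3 fragments per library.

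For the alternatives here and in the next paragraph, the shares over all genes at an unadjusted p of 0.05 and without overlap are not given. The counts are therefore not read as a result about the 9 genes or the pathway. The number of the 9 genes at an unadjusted p of 0.05 (1) was 2 with all listed transcripts, 0 with either other scaling and between 0 and 1 without any 1 library. Genes without overlap (2) were 1 with either other scaling and between 2 and 3 without any 1 library, where fewer libraries make a lack of overlap easier to reach. The other pathway genes at an unadjusted p of 0.05 (5) were 12 with all listed transcripts and between 3 and 12 without any 1 library, 12 being without NMDA + PBS replicate 1. Without that library all remaining NMDA + PBS libraries use list B, and 2 of the other pathway genes (Mapk8 and Spred2) passed an adjusted p of 0.05, beside 909 of all genes; without any other library 0 pathway genes did. Over all genes the calls were between 0 and 909 without any 1 library (1, Foxe3, without NMDA + SCF replicate 2) and 1 (mt-Nd1) with voom, Mapk8, Foxe3 and mt-Nd1 being named after their values were seen.

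With the replicate number as a block, 0 of the 9 genes and 3 of the other pathway genes reached an unadjusted p of 0.05. Deviations of same-numbered libraries correlated at -0.04, -0.04 and -0.06, so the numbers were not taken to pair the libraries, and no other replicate block call changed. With few fragments, differences in Kit, Grb2, Pik3ca and Mapk3 could not be detected unless large.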
